A study of Mus musculus with 2 samples.

Results

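In 194 cells of a mouse pancreatic tumour library sorted for high surface CD9, RNA from a run of neighbouring genes on chromosome 15 that ends with Myc and Pvt1 was raised together. The cells were chosen by that signal. A barcode, the tag of one droplet and usually of 1 cell, was kept with at least 500 detected genes, at least 1000 unique molecular identifiers (UMIs, each standing for 1 captured transcript) and at most 20% mitochondrial UMIs. A kept barcode was a member when Mrpl13, Derl1 and Ndufb9 together reached 2000 counts in each 1 M UMIs (CPM) and the nuclear RNA Malat1 reached 1000 CPM. The rule took 194 of the 4479 kept CD9hi barcodes with that much Malat1, which is 4.33% (95% Clopper-Pearson interval 3.75 to 4.97%). The library held 5500 barcodes in all and the series 8582. The remaining 4285 barcodes with that much Malat1 are called the others.

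The study compared 1 droplet library of whole tumour with 1 library of CD9hi cells, both from pancreatic ductal adenocarcinoma of the KPFRR mouse line. Cells of both libraries, members and others alike, carry Trp53frt/frt under Pdx1-Flp, together with the Rosa26 alleles Rosa26mTmG, a switch from Tomato to GFP, and Rosa26FSF-creER. Flp recombinase is driven by the Pdx1 promoter, which is active in the pancreatic lineage, and it removes Trp53. Per the labels' protocols, sorting of live cells used GFP or CD9, and libraries were made from transcript 3′ ends. The animals' age and number, and whether both libraries came from the same animal, are given by no source used here. The CD9hi file held 120451299 UMIs and the whole-tumour file 48287984. The libraries shared 2 barcode sequences, and 0 of these belonged to members. With 1 library a group, no comparison was tested, and intervals are 95% intervals that cover counting error only.

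Myc is a transcription factor that binds DNA with its partner Max and raises the output of genes for ribosome production, translation, nucleotide synthesis and amino acid supply. Pvt1, its neighbour, gives a long non-coding RNA, and the human counterparts of the pair also lie side by side. Extra copies of the stretch that holds both are a known event in pancreatic and other cancers, in which the genes around Myc are carried along. RNA counts do not measure DNA copies, so copy number was not tested here.

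The raised stretch ran from Ext1 to Pvt1. Genes with a mean of at least 20 CPM over members and others were taken as measured, and 26 of the 121 genes annotated in the stretch passed, 45 of the 121 being protein-coding. Members and others are compared below as the log2 ratio of their summed CPM, and a ratio of at least 1.5-fold is called higher or lower. The 3 rule genes were higher by choice, Mrpl13 at 1396 against 115 CPM, Derl1 at 713 against 86.4 CPM and Ndufb9 at 3541 against 317 CPM. Mrpl13 encodes a protein of the mitochondrial ribosome, Derl1 a channel for misfolded proteins in the endoplasmic reticulum and Ndufb9 a subunit of respiratory complex I. The other 23 measured genes summed to 6336 CPM in members and 928 CPM in others, a log2 ratio of 2.77 (2.75 to 2.79). Of these 23, 22 were called higher, 19 of them by at least 4-fold, and the median log2 ratio was 3.15. Because the rule used this stretch, these values describe the choice and no test was made of them. The filter took the mean of both groups, so some of these genes passed through their level in members alone. Among them were Mtbp, Tbc1d31, Deptor and Pvt1, at 4.16, 4.71, 4.72 and 13.1 CPM in others, and such genes are readily called higher. The same limit holds, in both directions, for genes outside chromosome 15. The gene before Ext1, Med30, had a log2 ratio of -0.58 and the gene after Pvt1, Cyrib, one of -0.093. The 197 measured chromosome 15 genes outside the stretch had a median of -0.29, with 4 called higher and 53 lower.

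**Figure D1:**
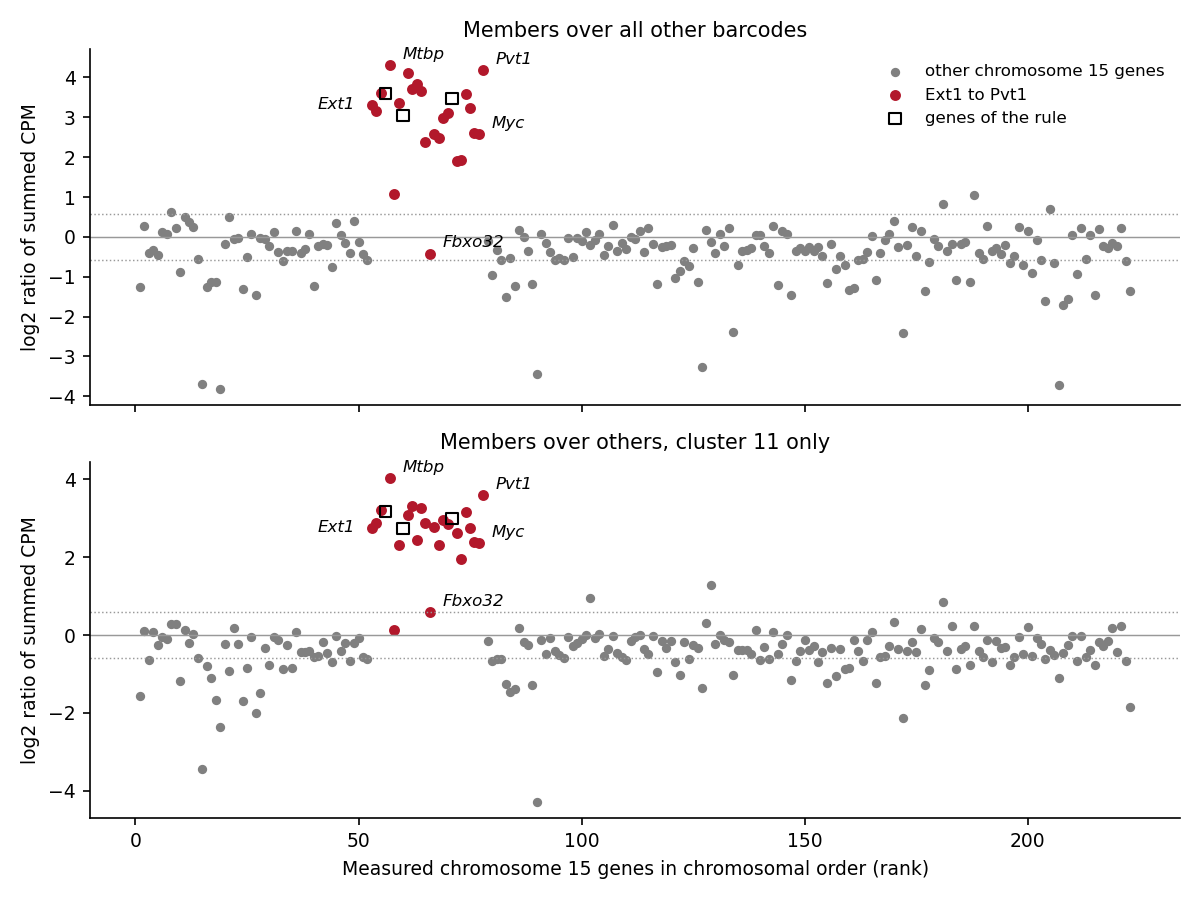
Log2 ratio of summed CPM for each measured chromosome 15 gene in chromosomal order, for members over all others (top) and over the others of cluster 11 (bottom). Red points are the run from Ext1 to Pvt1, open squares the 3 rule genes, grey points the other genes, and dotted lines mark 1.5-fold. The red points stand together above the rest, with Has2 and Fbxo32 nearest to 0.

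Myc was at 476 CPM in members and 80.0 CPM in others, a log2 ratio of 2.57 (2.51 to 2.63). Pvt1 was at 239 against 13.1 CPM, a log2 ratio of 4.18 (4.08 to 4.29). The highest ratio of the stretch was that of Mtbp, which encodes an Mdm2-binding protein with a role in replication, at 82.1 against 4.16 CPM and a log2 ratio of 4.30. Tbc1d31, a centrosomal protein gene, had a log2 ratio of 4.12, Atad2, a chromatin cofactor gene, 3.66, Deptor, an inhibitor of mTOR, 3.62 and Washc5, of the actin-nucleating WASH complex, 3.59. Ext1, which makes heparan sulfate chains, was at 732 against 73.9 CPM and a log2 ratio of 3.31. Nsmce2, a SUMO ligase of DNA repair, had a log2 ratio of 3.24 and Taf2, of the general transcription machinery, 3.15. Trib1, a pseudokinase gene and the nearest measured gene before Myc, had 2.62. Sqle, an enzyme of cholesterol synthesis, was lower in this order at 1.94, as was Mtss1, a membrane-bending protein gene, at 1.90.

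Not every gene of the stretch was raised. Fbxo32, a ubiquitin ligase gene, was at 43.2 CPM in members and 57.8 CPM in others, a log2 ratio of -0.42. Has2, which makes hyaluronan, had a log2 ratio of 1.08, and its antisense gene Has2os 3.37, although reads of an antisense pair may not be told apart because no source used here gives the strand setting of the counting. Of the 95 genes of the stretch below 20 CPM, 55 had UMIs. Among these, Ccn3, a matricellular protein gene, was at 25.9 against 3.94 CPM, Trmt12, a tRNA-modifying enzyme gene, at 31.4 against 4.69 CPM and Dscc1, of a clamp loader for replication, at 12.2 against 1.20 CPM. Samd12 had a log2 ratio of 0.11, Tnfrsf11b of -0.32, Zhx2 of 0.019, Enpp2 of -0.79 and Mal2 of -1.19. These low genes were singled out after their values were seen.

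In single barcodes, the 23 genes that the rule did not use ranged in members from 0 to 48972 CPM, with a median of 5386 CPM. In others the median was 867 CPM, the 95th percentile 1624 CPM and the highest value 12127 CPM. The 2 ranges overlapped at few barcodes, since 183 of 194 members lay above the 99th percentile of the others and 10 of 4285 others reached the lower quartile of the members. Only 2 members lay below the median of the others. Myc in single members ranged from 0 to 4484 CPM with a median of 313 CPM, against a median of 46.0 CPM in others. Members had a median of 34074.5 UMIs and 5510 detected genes, against 21939 UMIs and 4648 genes in others, and their median mitochondrial share was 2.47% against 3.02%. With every barcode thinned to 5000 UMIs, for which 187 members and 4200 others were deep enough, the segment median was 3.20.

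**Figure D2:**
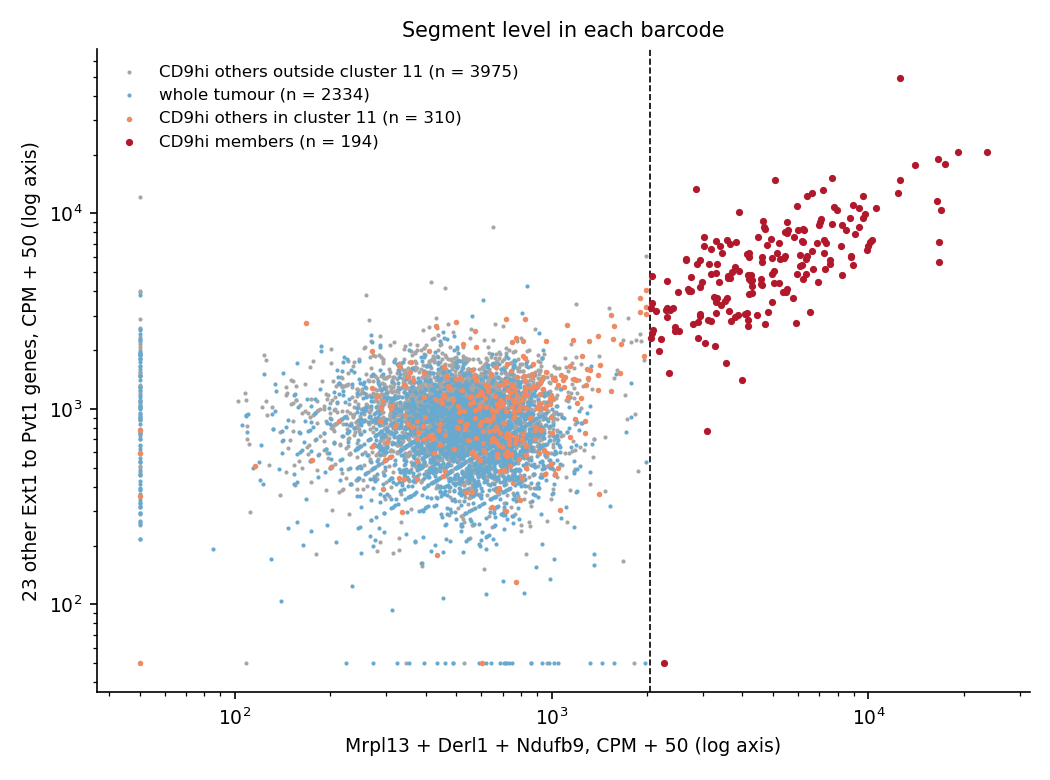
Each point is 1 barcode, with the summed CPM of the 3 rule genes on the x axis and of the 23 other segment genes on the y axis, both with 50 CPM added and on log axes. The dashed line marks the 2000 CPM of the rule. The 194 members (dark red) continue upward from the cloud of others, and 0 of the 2334 whole-tumour barcodes (blue) crosses the line.

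The cells near the threshold formed a gradient. The 14 barcodes between 1750 and 2000 CPM of the rule genes, just outside, had 2513 CPM of the other segment genes and 276 CPM of Myc in their summed counts. The 11 barcodes between 2000 and 2250 CPM, just inside, had 2759 CPM and 217 CPM. The 84 barcodes at or above 5000 CPM had 8441 CPM of the segment and 623 CPM of Myc. The lowest bin of others, below 500 CPM, held 2318 barcodes with 926 CPM of the segment.

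In members and in others alike, the segment varied more than the rest of the chromosome. Its coefficient of variation over the 150 members in cluster 11, the cluster described next, was 50.6%, where counting error alone would give 7.78%. Over the same barcodes the other chromosome 15 genes had a coefficient of variation of 15.7%, against 3.52% from counting error. The segment of the 310 others in that cluster varied by 57.1% around a mean of 1058 CPM, where counting error alone would give 21.8%. Their other chromosome 15 genes varied by 23.7%. The segment sum holds fewer genes than the rest of the chromosome, and the part of that in these spreads was not tested.

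Of the 17 clusters formed from the CD9hi barcodes with Malat1 at 1000 CPM or more and with all chromosome 15 genes left out, cluster 11 held 150 of the 194 members, or 77.3%, and 310 others, or 7.23% of the others. Its leading genes were Tagln, Col1a2, H19, Bgn, Col1a1, Col3a1, Lgals7, Thbs2, Thy1 and Plac9a, of which Tagln is an actin-binding protein gene and Col1a1, Col1a2, Col3a1, Bgn and Thbs2 are matrix genes. No cell type name was given to it. Cluster 14, whose leading genes were Gm43123, Olfr655, Gm26885, Gm42798 and the small nuclear RNA 7SK, held 29 members, cluster 8 held 7, cluster 0 held 4, cluster 2 held 3 and cluster 1 held 1. The other 11 clusters held 0. Members sat close to each other in this chromosome 15-free space. Of the nearest neighbours of a member in cluster 11, a median of 85.7% were members, and of those of an other in that cluster, a median of 0%, where 32.6% of the cluster's barcodes were members. Within a cluster the segment was again higher in members, with log2 ratios of 2.62 in cluster 11, 2.88 in cluster 14, 2.42 in cluster 8, 1.74 in cluster 0 and 1.31 in cluster 2. In cluster 11, 21 of the 23 genes were called higher, with a median of 2.79, Has2 at 0.13 and Fbxo32 at 0.58 being the others. The 1 member in cluster 1 had no UMI of the 23 segment genes.

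Members had few markers of cell types other than tumour or mesenchymal cells. Summed over each list, acinar markers were at 1.05 CPM, islet markers at 0.601 CPM, macrophage markers at 6.17 CPM, T or NK cell markers at 0.301 CPM, endothelial markers at 18.6 CPM and erythroid markers at 0 CPM. Neutrophil, dendritic cell and B or plasma cell markers lay between 0.902 and 1.35 CPM, and mast cell markers were at 24.5 CPM with Cpa3, Fcer1a and Ms4a2 at 0. Mesothelial markers summed to 69.2 CPM, with Msln alone at 20 CPM or more, and Schwann or neural markers to 67.7 CPM, with Ncam1 alone there. Fibroblast markers summed to 81.8 CPM in members, 98.4 CPM in others and 569 CPM in the others of cluster 11. Of those 7 markers, Col1a1 alone reached 20 CPM in members, at 69.9 CPM, and Lum and Dpt were at 0. Pericyte or smooth muscle markers summed to 77.7 CPM in members, with Myh11 at 0, against 230 CPM in the others of cluster 11. Ductal or tumour epithelial markers summed to 2315 CPM in members, 8644 CPM in others and 2750 CPM in the others of cluster 11, and 6 of the 7, all but Cdh1, reached 20 CPM in members. GFP, the reporter of recombined cells, had 0 UMIs in members and in others, so lineage could not be read from it. TdTomato had 0 UMIs in members and 9 in others.

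Trp53, the gene deleted in the model, was at 311 CPM in members and 226 CPM in others. Tags at transcript 3′ ends need not lie in the deleted part, so these levels do not check the deletion. Cdkn2a, which encodes the tumour suppressors p16 and p19Arf, was at 2239 against 1456 CPM, a log2 ratio of 0.62 (0.60 to 0.65). Cd9, the sort marker and a tetraspanin gene, was at 1533 against 2362 CPM, a log2 ratio of -0.62, and at -0.71 in cluster 11. Jag1, a Notch ligand gene, was at 44.5 against 161 CPM, a log2 ratio of -1.85, and at -1.45 in cluster 11.

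Outside chromosome 15, 5426 genes were measured, of which 755 (13.9%) were called higher in members and 793 (14.6%) lower, around a median of 0.043. The members differ from the others in cluster make-up as well as in the segment, so values are also given within cluster 11, a comparison added after seeing the data. The others of cluster 11 are not matched cells. Their fibroblast markers summed to 569 CPM against 81.8 CPM in members, and pericyte or smooth muscle markers to 230 against 77.7 CPM. Endothelial markers were higher in them too, among them Emcn and Cdh5, which were at 0 in members. The part of such cells in the values within cluster 11 was not tested. Within cluster 11, 5337 genes were measured, 373 (6.99%) were called higher and 610 (11.4%) lower, around a median of 0.011. Of the 744 genes called higher in the first comparison and measured in both, 284 were also called higher within cluster 11, and of the 622 called lower, 368 were also called lower. Since the rule chose the cells with this contrast, these shares are given as background and nothing is read from them.

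Among genes outside chromosome 15 with a mean of at least 50 CPM, the highest ratio was that of Tagln, and the 15 highest are given here. Tagln, an actin-binding protein of contractile cells, was at 419 against 23.7 CPM, a log2 ratio of 4.15, and at 1.24 within cluster 11. Its UMIs were uneven, since the top 10% of members by Tagln held 64.5% of them. Lgals7, a galectin gene, had a log2 ratio of 3.61 and of 0.98 within cluster 11, and Plac9a, a small secreted protein gene, 3.13 and 0.76. H19, an imprinted non-coding RNA, had 2.83, and 0.38 within cluster 11, where it was not called. Dnajb14, a co-chaperone of the endoplasmic reticulum, was at 287 against 46.5 CPM, a log2 ratio of 2.63, and at 248 against 87.7 CPM within cluster 11. Akap12, a scaffold for protein kinase A, had 2.61 and 1.97. Asns, asparagine synthetase, had 2.21 and 1.47, and Atf5, a transcription factor of the stress response, 2.16 and 1.19. Mthfd2, a mitochondrial enzyme of one-carbon metabolism, had 2.08 and 1.49, and Psat1, of serine synthesis, 1.96 and 1.17. Wnt10a, a secreted Wnt ligand, had 1.93 and 1.44, and Tcof1, a nucleolar factor of ribosomal RNA transcription, 1.92 and 1.43. The rest were 3300005D01Rik, with 2.71 and 0.90, Pdlim2, an adaptor of the actin cytoskeleton, with 2.30 and 0.45, and Gfpt2, of the hexosamine pathway, with 2.09 and 0.48. Within cluster 11 neither Pdlim2 nor Gfpt2 was called. As with Tagln, UMIs of Lgals7, Akap12, Dnajb14 and H19 were uneven among members. The top 10% of members by each gene held 63.0%, 62.7%, 59.6% and 57.6% of them. For the remaining genes of the 15 that share lay between 27.7 and 41.8%.

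Within cluster 11 the highest gene at a mean of at least 50 CPM was Tnnt2, cardiac troponin T, at 171 against 40.4 CPM and a log2 ratio of 2.08. Shmt2, which makes glycine and one-carbon units in mitochondria, followed Akap12, Dnajb14 and Mthfd2 with 1.49. Psph, the last step of serine synthesis, had 1.42, Pcbp4, an RNA-binding protein gene, 1.38, and Ccnd2, a D-type cyclin, 1.37 at 479 against 186 CPM. Rrp9 and Mphosph10, both of early ribosome assembly, had 1.32 and 1.22. Over the 17 clusters, the genes whose log2 level followed that of the summed rule genes most closely among 2872 ranked were Polr2i, an RNA polymerase II subunit gene, with a Pearson r of 0.89, Dnajb14 with 0.86 and Ndufb10, another complex I subunit gene, with 0.83. These points share a library and the likeness is to the genes that chose the members, so it is a description. Clusters 11 and 14, which hold most members, had 2671 and 2715 CPM of the rule genes, against 362 to 833 CPM in the other clusters.

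Ribosome production genes were higher in members almost throughout. Counts of this and the following lists stand beside 13.9% called higher and 14.6% lower over all genes outside chromosome 15. Within cluster 11 these shares were 6.99% and 11.4%. Of 23 measured genes of ribosome biogenesis, 21 were called higher and 0 lower, with a median of 0.90, and within cluster 11 20 of 23 were called higher with a median of 0.73. Dkc1, the pseudouridine synthase of ribosomal RNA, was at 123 against 43.3 CPM, a log2 ratio of 1.51, and at 1.05 within cluster 11. Rrp9, a U3 snoRNP protein gene, had 1.45 and 1.32, Wdr43, of the small-subunit processome, 1.43 and 1.12, and Nop2, a ribosomal RNA methyltransferase, 1.19 and 0.98. Of 75 cytosolic ribosomal protein genes, 37 were called higher and 0 lower, with a median of 0.57, and within cluster 11 16 were higher with a median of 0.46. Their summed level was 221333 CPM in members, 146531 CPM in others and 169784 CPM in the others of cluster 11. The nuclear RNA Malat1 differed the other way, at 15354 CPM in members, 24896 CPM in others and 20006 CPM in the others of cluster 11, and its part in this was not tested. Reads of these genes can be shared with their many pseudogenes, so single members such as Rpl36a, at 0.92, are uncertain. Of 19 translation factors and chaperones, 5 were called higher, and within cluster 11 1 was, which lies near the 6.99% over all genes there. Among the 5 were the translation repressor Eif4ebp1 at 1.12, and 0.52 within cluster 11, and the mitochondrial chaperone Hspd1 at 0.84 and 0.62.

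Genes that supply amino acids, nucleotides and one-carbon units were also higher. Of 12 measured genes of amino acid metabolism, 8 were called higher and 1 lower, Glul, the glutamine synthetase gene, at -1.51, and the median was 1.62. Within cluster 11 the counts were again 8 and 1, with a median of 1.04. Slc1a5, a glutamine transporter gene, was at 55.2 against 7.69 CPM, a log2 ratio of 2.84, and at 2.12 within cluster 11. Against all others it passed the filter through members alone. Aldh18a1, the entry step of proline synthesis, had 1.81 and 1.10, and Phgdh, the entry step of serine synthesis, 1.55 and 1.08. Of 15 measured nucleotide and one-carbon genes, 9 were called higher and 0 lower, with a median of 0.71, and within cluster 11 9 of 16 were higher with a median of 0.64. Srm, spermidine synthase, was at 225 against 69.7 CPM, a log2 ratio of 1.69, and at 1.04 within cluster 11. Odc1, the ornithine decarboxylase gene and a textbook target of Myc, had -0.076 and -0.27.

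The letters CACGTG, the E-box form to which Myc and Max bind, were searched in RefSeq promoters (GRCm38.p6, 250 bases before to 50 after each start, matched by symbol). The motif reads the same on both strands. It was in 7.15% of 32851 promoters. Counted by gene, at least 1 promoter held it in 8.09% of all 27025 genes and in 12.8% of the 4404 measured genes with an entry. The share was 16.9% of 585 genes called higher and 9.51% of 610 called lower, and within cluster 11 21.3% of 301 higher and 10.2% of 461 lower genes. A share over all genes measured within cluster 11 was not taken. The motif was in 3 of 20 matched ribosome biogenesis genes, 5 of 14 nucleotide and one-carbon genes, 1 of 9 amino acid genes, 6 of 57 cytosolic ribosomal protein genes, 4 of 39 mitochondrial ribosome genes and 0 of 10 collagen and matrix genes. The ribosome biogenesis, amino acid, cytosolic ribosomal protein and mitochondrial ribosome shares, 15%, 11.1%, 10.5% and 10.3%, lie near the 12.8%. Nothing is read from them. Of the 12 genes with the widest ratios in the ribosome, nucleotide and amino acid lists, 10 had an entry and 3 of these held the motif. Those 3 promoters are shown because they hold the motif, and the promoters of the other 7 genes, which do not, are left out. They are printed with CACGTG in capitals, 5′ to 3′ on the gene's strand. Nop2 is at chr6:125131633-125131932 (+ strand), Wdr43 at chr17:71615965-71616264 (+ strand) and Aldh18a1 at chr19:40588414-40588713 (- strand), in GRCm38.p6, whereas the counts were made on GRCm39. The motif starts at base 191 of 300 in Nop2, 268 in Wdr43 and 192 in Aldh18a1. A match is a run of letters and was not tested as a bound site.
Nop2: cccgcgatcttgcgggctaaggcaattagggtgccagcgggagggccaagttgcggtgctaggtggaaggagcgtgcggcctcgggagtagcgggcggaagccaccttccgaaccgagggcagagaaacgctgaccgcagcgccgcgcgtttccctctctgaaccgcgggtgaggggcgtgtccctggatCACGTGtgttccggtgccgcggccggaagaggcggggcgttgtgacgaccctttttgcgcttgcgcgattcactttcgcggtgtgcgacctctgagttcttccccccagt
Wdr43: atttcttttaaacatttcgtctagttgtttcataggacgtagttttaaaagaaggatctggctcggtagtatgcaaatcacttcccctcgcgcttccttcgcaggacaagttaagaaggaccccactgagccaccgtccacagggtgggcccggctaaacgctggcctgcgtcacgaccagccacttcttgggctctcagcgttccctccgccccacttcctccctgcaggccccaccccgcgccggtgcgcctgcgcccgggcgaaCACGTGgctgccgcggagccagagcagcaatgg
Aldh18a1: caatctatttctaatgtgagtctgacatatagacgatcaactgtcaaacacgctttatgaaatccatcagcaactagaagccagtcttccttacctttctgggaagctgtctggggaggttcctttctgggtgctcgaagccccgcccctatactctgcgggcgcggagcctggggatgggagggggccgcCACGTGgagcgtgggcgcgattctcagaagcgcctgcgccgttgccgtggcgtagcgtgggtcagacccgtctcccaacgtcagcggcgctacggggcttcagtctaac

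Mitochondrial ribosome and complex I genes outside chromosome 15 are given next, since Mrpl13 and Ndufb9 belong to these complexes. Both of those are rule genes and were higher by choice, so nothing is read from a smaller ratio in the lists. Of 44 measured genes of the mitochondrial ribosome, 7 were called higher and 0 lower, with a median of 0.35, and within cluster 11 2 were higher with a median of 0.21. The 7 of 44 lie near the 13.9% called higher over all genes outside chromosome 15, whereas the median lies above their 0.043. Mrpl15 was at 117 against 65.7 CPM, a log2 ratio of 0.83. Of 35 complex I subunits, 2 were called higher, Ndufb10 at 0.82 and Ndufa10 at 0.59, and 0 lower, and within cluster 11 none was called in either direction. Of 15 genes of endoplasmic reticulum-associated degradation, the pathway of Derl1, 0 were called higher and 2 lower, with a median of -0.042. One of the 2 was Selenos, which helps to move misfolded proteins out, at -0.59. The 2 of 15 lie near the 14.6% called lower over all genes outside chromosome 15, so nothing is read from them.

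Cholesterol synthesis genes were lower, in contrast to Sqle inside the segment. Of 13 measured genes, 0 were called higher and 12 lower, with a median of -1.30, and within cluster 11 7 of 11 were lower with a median of -1.17. Idi1, which makes the isoprenoid building block, was at 10.7 against 64.4 CPM, a log2 ratio of -2.58, and at -2.53 within cluster 11. Msmo1, a sterol oxidase, was at 42.7 against 209 CPM, a log2 ratio of -2.29, and at -1.62 within cluster 11. Hmgcs1, at the head of the pathway, was at 25.3 against 112 CPM, a log2 ratio of -2.15, and at -1.57 within cluster 11.

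**Figure D3:**
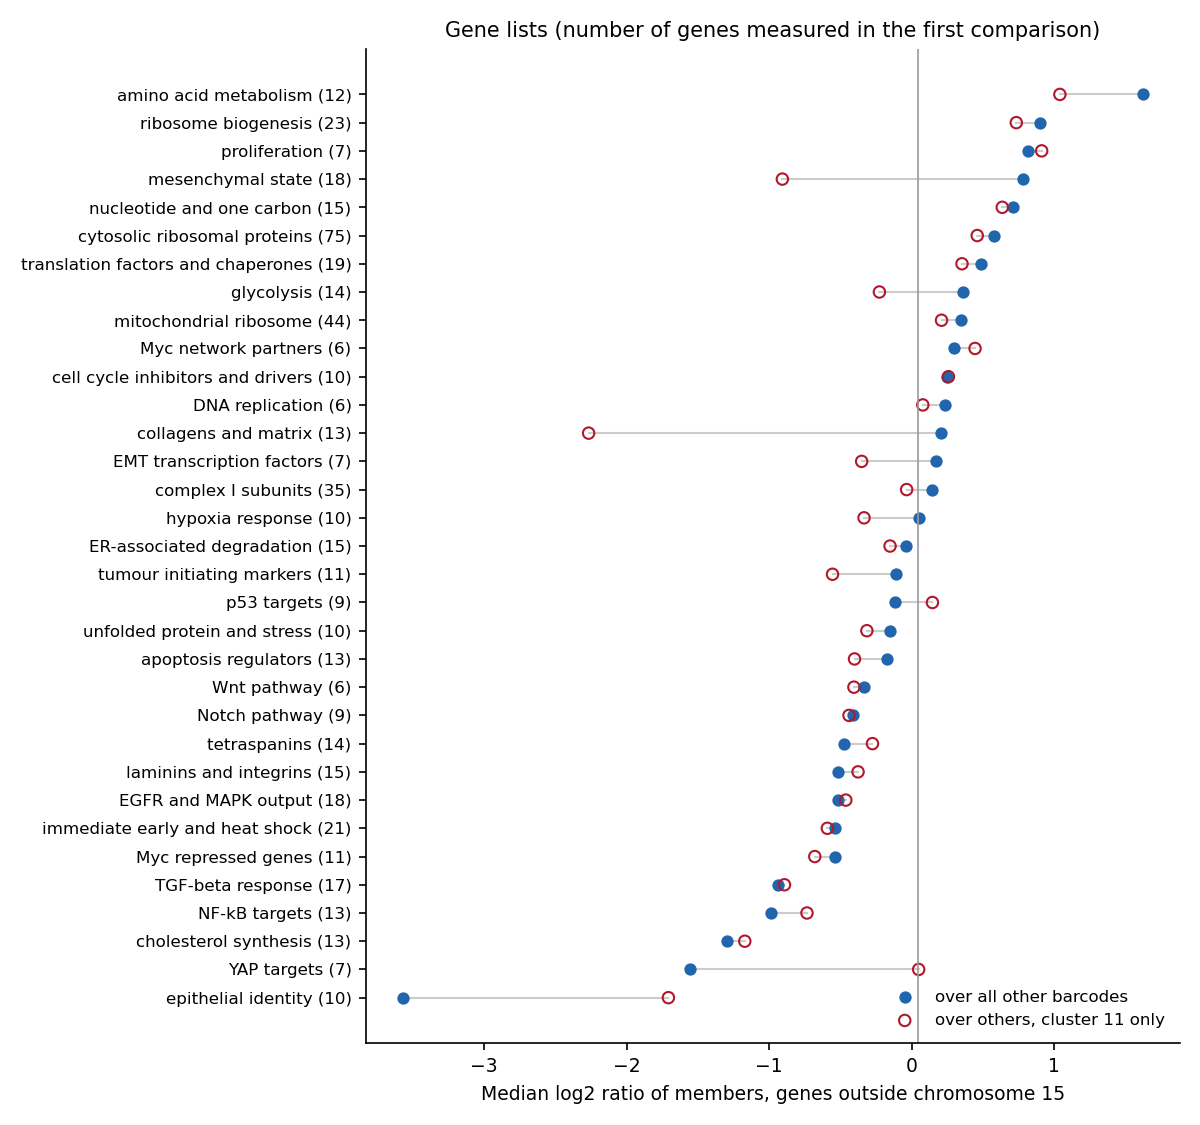
Median log2 ratio of each gene list with at least 5 measured genes in the first comparison, chromosome 15 genes left out. Filled points are over all others and open points over the others of cluster 11. The open points of epithelial identity and proliferation rest on 3 and 4 genes. The grey vertical line is the median of all 5426 genes in the first comparison, 0.043. Ribosome, nucleotide and amino acid lists lie to the right in both comparisons, whereas the mesenchymal list lies to the right in the first comparison and to the left in the second.

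Epithelial genes were low in members. Of 10 measured epithelial identity genes, 10 were called lower, with a median of -3.57, and within cluster 11, where 3 were measured, 3 were lower with a median of -1.71. Epcam, an epithelial adhesion gene, was at 96.1 against 1237 CPM, a log2 ratio of -3.68, and the top 10% of members held 90.5% of its UMIs in members. Within cluster 11 it was at 46.3 against 108 CPM. The other lowest genes at a mean of at least 50 CPM are given next. Cldn4, of tight junctions, had -4.04 and, within cluster 11, -1.13. Cldn7, of the same junctions, had -3.99 and -0.38, the second of which was not called. Spint2, a protease inhibitor gene, had -3.84 and -1.71, Lsr, of tricellular junctions, -3.67 and -1.60, and Lamb3, a basement membrane laminin chain, -4.09 and -3.08. Plac8 had -4.51 and -4.11, Csf2, a myeloid growth factor gene, -3.88 and -2.93, and Cd24a, a surface glycoprotein gene, -3.85 and -2.55. Tspan8, a tetraspanin gene, had -3.79 and -2.60, Ctse, a gastric-type protease gene, -3.77 and -1.03, and Cxcl2, a chemokine gene, -3.60 and -2.15. The top 10% of others by Cxcl2 held 94.4% of its UMIs in others. The islet genes Iapp and Ppy and the acinar gene Ctrb1 had 1, 2 and 3 UMIs in members, with log2 ratios of -8.93 (-14.8 to -7.04), -8.22 (-11.6 to -6.69) and -7.71 (-10.2 to -6.38). Without clusters 9, 15 and 16, led by acinar, islet and macrophage genes, the others held 0.324, 0.679 and 1.24 CPM of these 3 genes.

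Mesenchymal genes were split, and their direction depended on the barcodes compared. Against all others, 11 of 18 mesenchymal genes were called higher and 4 lower, with a median of 0.78. Within cluster 11, 1 of 22 was higher, Tagln, and 14 were lower, at a median of -0.91. Bgn, a matrix proteoglycan gene, was at 186 CPM in members, 52.0 CPM in others and 363 CPM in the others of cluster 11. Collagen and matrix genes had a median of 0.21 against all others, although that median was -0.51 at a minimum of 50 CPM and also at 5 CPM. Of 13 measured, 2 were called higher, near the 13.9% over all genes outside chromosome 15, and 4 lower. The median was -2.27 within cluster 11, with 0 of 14 higher and 13 lower. Col6a2 was at 20.9 against 147 CPM within cluster 11, a log2 ratio of -2.81, and Col5a2 at 14.4 against 110 CPM, a log2 ratio of -2.93. The fibroblast markers of the list above move with this result, at 569 CPM in the others of cluster 11, and their part in it was not tested. Vim, an intermediate filament gene of mesenchymal cells, was at 3989 CPM in members and 4865 CPM in others, a log2 ratio of -0.29, and within cluster 11 at 4055 against 6286 CPM, a log2 ratio of -0.63, which was called lower.

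Within cluster 11 the lowest genes at a mean of at least 50 CPM were Ccl2, a monocyte chemokine, at 3.78 against 134 CPM and a log2 ratio of -5.12 (-5.85 to -4.53), Grem1, a BMP antagonist, at -5.03, and Stmn2, a microtubule regulator of neurons, at 27.7 against 624 CPM and -4.49. These UMIs were unevenly spread among the others of cluster 11, where the top 10% of barcodes held 86.2% for Ccl2, 62.3% for Grem1 and 36.6% for Stmn2. Igfbp3 and Igfbp4, which bind insulin-like growth factors, had -3.49 and -2.63, Mt2, a metallothionein, -3.38, Inhba, an activin subunit, -3.14, and Ptgs2, of prostaglandin synthesis, -2.66. Gng11, Hspa1a, Sfn, Rian and Tnfaip6 completed the 15, between -3.01 and -2.58. Of 17 TGF-beta response genes, 12 were called lower and 1 higher against all others around a median of -0.94, and 14 lower and 0 higher within cluster 11. Id1, an inhibitor of differentiation factors, had -2.26 and -2.41. Of 13 NF-kB targets, 7 were lower and 1 higher around a median of -0.99, and 7 lower within cluster 11, with the chemokine gene Cxcl1 at -2.91 and -2.47. Of 4 measured antigen presentation genes, 3 were lower, among them the class I genes H2-K1 at -2.61 and -1.31 and H2-D1 at -2.59 and -1.90, and 4 were lower within cluster 11. The others of cluster 11 had more fibroblast, pericyte and endothelial marker RNA than members. The part of this in the lowest genes and list counts within cluster 11 was not tested.

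Genes that Myc is known to repress were more often lower than higher. Of 11 measured, 5 were called lower and 1 higher, with a median of -0.54, and within cluster 11 7 were lower and 0 higher around a median of -0.68. Gadd45a, a growth arrest gene, was at 41.1 against 389 CPM, a log2 ratio of -3.24, and at -1.61 within cluster 11. Cdkn2b, a cell cycle inhibitor, had -1.30 and -0.41. Tgfbi, a matrix protein gene, was the 1 called higher, at 0.96, and was at 85.7 against 172 CPM within cluster 11. Of 6 measured partners of Myc, Max had 0.65 and 0.55, Mga 0.70 and 0.56, and Mxd1, an antagonist, -1.77 and -0.57, and 3 were called higher and 1 lower against all others and 0 within cluster 11. Of 7 measured proliferation genes, 6 were higher and 0 lower, with Ccnd2 at 1.41 and Cdc20, an activator of mitotic exit, at 0.99, and 3 of 4 were higher within cluster 11. Of 6 measured DNA replication genes, 1 was higher, Rfc4, of the clamp loader, at 1.20, and 0 within cluster 11, with Rfc4 at 0.51. Of 18 EGFR and MAPK output genes, 7 were lower and 2 higher, with the stress-response gene Ier3 at -1.89 and -0.69. Of 21 immediate early and heat shock genes, 9 were lower and 2 higher, and within cluster 11 11 were lower. Of 7 YAP targets, 4 were lower and 1 higher around a median of -1.56, which was 0.048 over 5 genes within cluster 11. Of 9 Notch pathway genes 1 was higher, Rbpj, the DNA-binding factor of the pathway, at 1.13, and 2 lower. Of 14 glycolysis genes 3 were higher and 2 lower, and their median of 0.36 was -0.23 within cluster 11. Over all 5426 genes outside chromosome 15, 13.9% were called higher and 14.6% lower, and within cluster 11 6.99% and 11.4%. The counts of the DNA replication, Notch and glycolysis lists lie near these shares, so nothing is read from them.

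Levels of several gene groups are given next along the rule-gene level of members. The 150 members in cluster 11 were ranked by their rule-gene CPM and divided into 3 groups of 50, which is a description since the ranking used the rule. From the lowest to the highest group, the 23 other segment genes were at 4378, 6013 and 8656 CPM. Myc was at 359, 485 and 649 CPM, against 98.8 CPM in the others of the cluster. Ribosome biogenesis genes summed to 5243, 6303 and 7134 CPM, against 3824 CPM, and nucleotide and one-carbon genes to 1800, 2247 and 2608 CPM, against 1669 CPM. Amino acid metabolism genes summed to 1637, 1818 and 2087 CPM, against 1077 CPM. Collagen and matrix genes went the other way, at 2766, 2266 and 1931 CPM, against 4051 CPM, and so did Epcam, at 122, 23.6 and 7.71 CPM, against 108 CPM. Cytosolic ribosomal protein genes stepped upward as well, at 220918, 235739 and 238765 CPM, against 169784 CPM. So did proliferation genes, at 989, 1374 and 1500 CPM, against 952 CPM. Tagln was at 334, 351 and 679 CPM, against 198 CPM. Glycolysis genes were at 7504, 7730 and 8371 CPM, below the 9214 CPM of the others. Cd9 stepped downward, at 1691, 1491 and 1343 CPM, against 2443 CPM. No such order held for DNA replication genes, at 419, 534 and 406 CPM, Bgn, at 236, 191 and 197 CPM, or Vim, at 4270, 3908 and 4020 CPM. Other chromosome 15 genes stayed between 30486 and 31962 CPM. Median depth also differed along the groups, at 30964, 36214 and 39499 UMIs, and Malat1 was at 20308, 14874 and 11078 CPM, and their part in these levels was not tested.

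**Figure D4:**
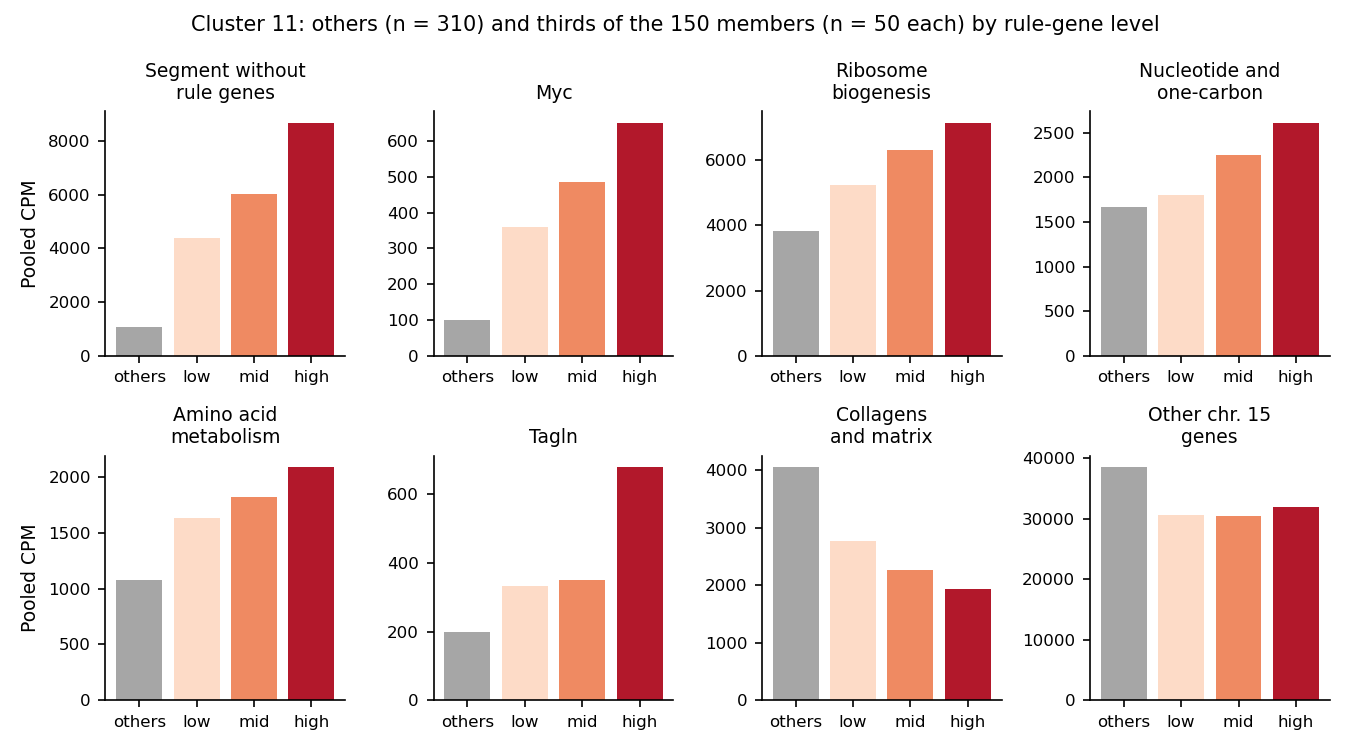
Pooled CPM in the 310 others of cluster 11 (grey) and in the 150 members of that cluster in 3 groups of 50 by rule-gene level (light to dark), for the segment without rule genes, Myc, 4 gene groups, Tagln and the other chromosome 15 genes. Bars are single sums without replicates and start at 0. Segment, Myc, ribosome, nucleotide and amino acid genes and Tagln step upward, whereas collagen and matrix genes step downward.

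No other run of raised genes was found elsewhere in the genome. Runs of at least 10 measured neighbours past 1.5-fold, by a running median over 5 genes, lay on chromosome 15 alone. Besides Ext1 to Pvt1, 1 was lower in the first comparison, 10 genes from Dip2b to Eif4b that hold the keratin genes Krt7, Krt8 and Krt18, and 1 was lower within cluster 11, 10 genes from Marchf6 to Cox6c. By whole chromosomes, chromosome 8 had the lowest median log2 ratio against all others, -0.33 over 300 genes, with chromosome 15 outside the segment at -0.29. Within cluster 11 the order was the reverse, at -0.31 and -0.39. Genes of chromosome 8 were low along its length, with medians of -0.33, -0.37, -0.31 and -0.32 in 4 equal stretches by gene order. The medians of the other chromosomes except 15 lay between -0.058 and 0.14 against all others, and between -0.14 and 0.21, highest on chromosome 7, within cluster 11. Chromosome 15 was low on both sides of the segment, at -0.23 before it and -0.33 after it. Against the whole-tumour library, a separate library that the rule did not use for the comparison, the medians of members were -0.11 on chromosome 8 and -0.090 on chromosome 15 outside the segment, where the members' other chromosomes lay between 0.069 and 0.38. On chromosome 8 and on chromosome 15 outside the segment, the medians of the CD9hi others were 0.16 and 0.19.

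**Figure D5:**
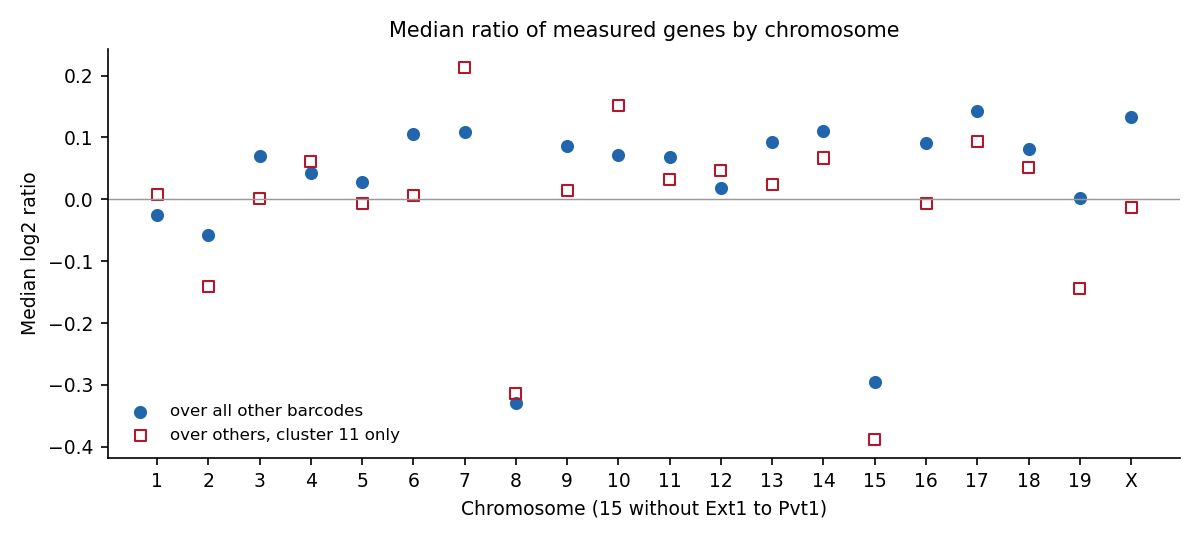
Median log2 ratio of measured genes by chromosome, for members over all others (circles) and over the others of cluster 11 (squares), with the genes from Ext1 to Pvt1 left out of chromosome 15. Chromosome 8 at -0.33 and -0.31 and chromosome 15 at -0.29 and -0.39 lie below the remaining chromosomes.

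In the whole-tumour library, 0 of 2334 barcodes that passed the same filters met the rule, where a count of 0 allows a share of up to 0.129%, and the highest level of the rule genes there was 1938 CPM. Its 23 other segment genes summed to 728 CPM, with Myc at 36.4 CPM, against 928 and 80.0 CPM in the CD9hi others. The absence of members from that library cannot be told apart from a difference between animals or tumours.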

How the data were processed

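Droplet libraries of mouse pancreatic tumour were used, 1 library of CD9hi cells and 1 library of whole tumour. The authors deposited UMI counts as whole numbers for each feature and barcode, not normalized, per the file headers. Cell Ranger made them on GRCm39. The submitters' processing notes give its version as 7.0.0, and the matrices' own header gives 6.1.2. No source used here says if reads in introns were counted, which bears on nuclear RNAs such as Pvt1 and Malat1. Of 55361 features, 52083 were given a chromosome and an order along it from the GENCODE M21 annotation of GRCm38, by identifier, and no coordinates of genes are printed from it.

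The members, lists and tests were chosen with earlier results of these data known. Counts were summed over members and over others, divided by their totals to give CPM, and compared as log2 ratios with 0.5 counts added, with exact conditional binomial 95% intervals. The segment was the run of chromosome 15 genes of at least 20 CPM whose running median over 5 genes passed 1.5-fold. Barcodes were clustered with scanpy 1.11.5 without chromosome 15 genes (2000 variable genes, 30 components, 15 neighbours, Leiden resolution 0.8). Doublets were kept in the main values. Scrublet's automatic threshold marked 1 of 5092 kept barcodes, so that call did not work, and an alternative removed the 207 highest scores, 13 of the members (6.70%) and 189 of the others (4.41%). Named genes were the rule and marker genes, the 15 highest and 15 lowest outside chromosome 15 at a mean of at least 50 CPM, up to 4 of each of 37 lists, and the genes of the model and the sort. The computation was tested on simulated data. Some alleles and genes of the model and of the lists are not reported here.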

Additional observations from a re-analysis of the deposited data

How the results depend on the processing

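No paired analysis was possible because each group has 1 library and the labels give no replicate numbers. Of the 16 alternatives, 13 were planned and 3 were chosen after seeing the data (cluster 11 only, others without clusters 9, 15 and 16, and without cluster 14). The segment median of 3.15 was 3.05 at a minimum of 50 CPM, 2.98 at 5 CPM, where the run began at Tnfrsf11b, 3.10 with median-of-ratios size factors, 3.24 with the mean of each barcode's CPM, 3.06 and 3.25 with rule genes at 1500 and 3000 CPM, 3.17 with others below 1000 CPM, 3.08 with no Malat1 minimum, 3.18 without the highest Scrublet scores, 2.82 over others weighted to the members' clusters 11 and 14, 3.20 thinned to 5000 UMIs, 2.81 within cluster 11, where Has2os was not measured, and 3.13 without cluster 14. Myc, at 2.57, was 2.49 with no Malat1 minimum, 2.65 without the highest Scrublet scores, 2.37 weighted and 2.37 within cluster 11. The 755 higher genes became 380 at 50 CPM, 1448 at 5 CPM, 385 weighted and 373 within cluster 11, and the 793 lower genes 386 at 50 CPM and 1673 at 5 CPM, where other numbers of genes were tested. The median of mesenchymal genes, 0.78, reversed to -0.87 weighted and -0.91 within cluster 11. That of collagen and matrix genes, 0.21, was -0.51 at 50 CPM and at 5 CPM. That of 7 YAP target genes, -1.56, reversed to 0.033 at 50 CPM, 0.038 weighted and 0.048 within cluster 11, and the cause was not tested. The number of members stayed within 1.5 times 194 in each alternative. The median of all genes outside chromosome 15 lay between -0.011 and 0.080. Depth limits what single barcodes show, since Myc had a median of 46.0 CPM in others.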

Other observations

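The Malat1 minimum left out 613 kept CD9hi barcodes, and 61 of these reached 2000 CPM of the rule genes. Their median level of the 23 other segment genes was 1828 CPM, against 244.5 CPM in the 552 that did not reach it. Their Myc level had a median of 0 CPM and ranged up to 2480 CPM.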
